A study of Mus musculus with 24 samples.

Results

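The comparison described here sets lens epithelium of mice 0.5 days after birth (P0.5) against lens epithelium of E18.5 embryos, named by the day of gestation. Its members are 6 of the 24 libraries of the study, the 3 labelled P0.5 and the 3 labelled E18.5 among those whose source is lens epithelium, and all 12427 genes that passed a filter on low counts were compared, of 12611 gene symbols in the count table. The mice were CD1, an outbred albino stock, with no other genotype and no treatment given in the labels. Lenses were dissected by hand into epithelium and fiber, the mass of elongated cells behind it, and total RNA was sequenced after removal of ribosomal RNA. The same was done at E14.5 and E16.5, and each tissue and stage has 3 biological replicates. The labels do not say how many animals or litters went into a replicate, the time of day, or how long before collection the P0.5 mice were born. P-values measure the spread between these libraries.

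The lens epithelium is a single layer of cuboidal cells under the front of the lens capsule. Its cells divide, make the capsule, which is a thick basement membrane, and at the equator of the lens leave the cell cycle and turn into fiber cells filled with crystallins. The lens has no blood supply of its own once a transient network of vessels on its surface has regressed. This network, the tunica vasculosa lentis and the pupillary membrane, is present before birth. Whether it had regressed by P0.5 was not tested, and endothelium markers were detected at both stages. Oxygen is low around the lens, and lens cells make much of their ATP by glycolysis. At birth the supply of oxygen, nutrients and hormones through the placenta ends, and the newborn breathes, is cooler than the fetus and feeds at intervals.

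The 6 libraries held 7658794 to 11731328 counts, of which the ribosomal RNA precursor Rn45s took 5.29% to 8.10%. Levels are given as CPM, a gene's counts relative to the size of its library after TMM scaling. All 12 lens epithelium markers were detected in all 6 libraries, among them Pax6 at 478 to 583 CPM and Foxe3, a transcription factor of the epithelium, at 130.3 to 221 CPM at E18.5, against 12.7 ± 1.45 CPM (SD, n = 3) in E18.5 fiber. The sum of the 12 was higher in E18.5 fiber, 186900 to 205500 CPM against 12590 to 13380 CPM in E18.5 epithelium. The list includes the crystallin gene Cryaa. Tissue next to the lens epithelium was detected as well. The 15 markers of the ciliary margin summed to 1027 to 1306 CPM at E18.5 and 893.1 to 1178 CPM at P0.5, against 43.49 to 152.3 CPM at E16.5. The 12 markers of neural retina summed to 135.0 to 219.5 CPM at E18.5 and 114.5 to 170.0 CPM at P0.5, and the 12 markers of endothelium to 417.4 to 583.4 CPM at E18.5 and 343.7 to 421.9 CPM at P0.5. For each of these 3 lists the ranges of both groups overlapped. In bulk libraries, fewer cells of a type and less RNA per cell cannot be told apart.

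Across birth 228 genes rose and 165 fell in epithelium. A gene rose or fell here when its adjusted p was under 0.05 and its change at least 1.5-fold in edgeR's quasi-likelihood test with Benjamini-Hochberg adjustment over all 12427 genes, and these words are kept for such genes. That is 1.83% and 1.33% of the genes tested, 3.16% together. With no fold minimum 799 genes were higher (6.43%) and 848 lower (6.82%), and at a minimum of 2-fold the counts were 72 (0.579%) and 53 (0.426%). The median log2 change over all genes tested was -0.003. Most genes that rose were of low abundance: 187 of the 228, and 105 of the 165 that fell, had group means under 20 CPM in both groups. The genes named first are the 12 largest rises and 12 largest falls among genes above that level whose P0.5 libraries all lay on one side of the E18.5 libraries.

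**Figure D1:**
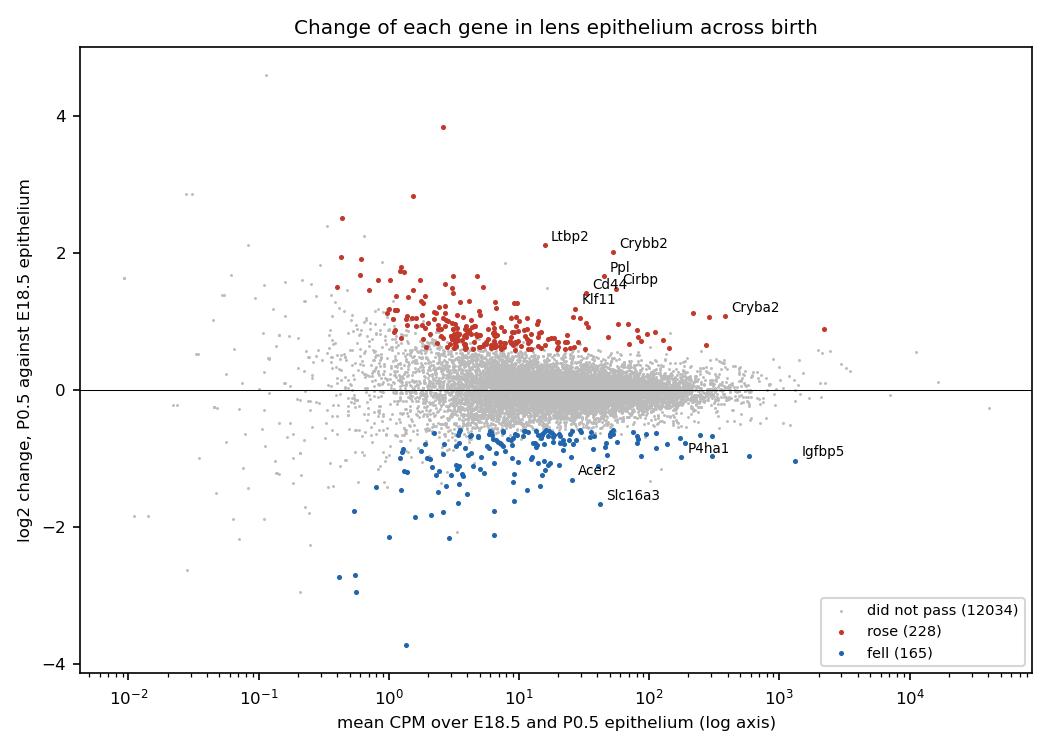
Change of each gene from E18.5 to P0.5 in lens epithelium (vertical axis, log2) against its mean CPM over the 2 groups (horizontal axis, log scale). Each point is a gene, red for the 228 that rose, blue for the 165 that fell and grey for the rest, and the names mark some of the abundant genes with the largest changes.

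Of the 12 largest falls 6 were targets of the hypoxia-inducible factors or genes of glycolysis and lactate export (Slc16a3, Bnip3, Egln3, Ddit4, Pgk1 and P4ha1). When oxygen is plentiful, prolyl hydroxylases mark the factors HIF-1 alpha and HIF-2 alpha for destruction. When it is scarce, the factors bind DNA at a short core motif, ACGTG or GCGTG, and switch on genes of glycolysis, lactate export, collagen hydroxylation and vessel growth. Of 23 hypoxia response genes tested 9 fell and none rose, with a median log2 change of -0.39, and DESeq2 called the same number. Of 19 glycolysis genes 9 fell and 1, Aldoc, rose, with a median of -0.63. Over both lists, which hold 42 genes together, 26 were lower at an adjusted p under 0.05 with no fold minimum, where the share over all genes was 6.82%. The P0.5 libraries all lay below the E18.5 libraries in 28 of the 42 and all above in 2, where 15.7% of all genes lay below.

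The 250 bases before the start of 4 of these genes are shown as examples. These genes are among the 12 largest falls and their start regions carry the core motif. Egln3 and Ddit4, also among these falls, are not shown. Their stretches hold fewer matches, 1 ACGTG in Egln3 and 1 ACGTG and 1 GCGTG in Ddit4. The stretches are from RefSeq on the build GRCm38.p6, 5′ to 3′ on the strand of the gene. Capitals mark each ACGTG or GCGTG and the same letters on the other strand, CACGT or CACGC. The Slc16a3 stretch lies at chr11:120948817-120949066 on the plus strand, that of Bnip3 at chr7:138909507-138909756 on the minus strand, that of P4ha1 at chr10:59323046-59323295 on the plus strand and that of Pgk1 at chrX:106186850-106187099 on the plus strand. The starts are those of RefSeq. In the GENCODE annotation Slc16a3 begins earlier, at 120948480, so its stretch lies inside the gene there. The last bases of the Bnip3 stretch also overlap the GENCODE gene.
Slc16a3: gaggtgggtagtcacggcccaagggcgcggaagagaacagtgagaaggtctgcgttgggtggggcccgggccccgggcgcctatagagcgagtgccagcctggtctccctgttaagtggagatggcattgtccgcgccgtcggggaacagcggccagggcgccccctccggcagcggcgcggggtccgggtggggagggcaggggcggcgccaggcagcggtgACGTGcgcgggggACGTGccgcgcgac
Bnip3: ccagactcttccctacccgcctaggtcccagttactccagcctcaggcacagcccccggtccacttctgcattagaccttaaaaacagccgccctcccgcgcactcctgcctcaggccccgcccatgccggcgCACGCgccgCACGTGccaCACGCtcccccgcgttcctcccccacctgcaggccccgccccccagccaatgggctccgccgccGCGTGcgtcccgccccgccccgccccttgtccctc
P4ha1: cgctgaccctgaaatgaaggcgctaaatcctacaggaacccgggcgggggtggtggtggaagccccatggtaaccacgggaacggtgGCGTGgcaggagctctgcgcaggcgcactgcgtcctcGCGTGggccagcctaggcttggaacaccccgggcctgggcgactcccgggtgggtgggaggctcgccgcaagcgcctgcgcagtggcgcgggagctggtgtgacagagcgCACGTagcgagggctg
Pgk1: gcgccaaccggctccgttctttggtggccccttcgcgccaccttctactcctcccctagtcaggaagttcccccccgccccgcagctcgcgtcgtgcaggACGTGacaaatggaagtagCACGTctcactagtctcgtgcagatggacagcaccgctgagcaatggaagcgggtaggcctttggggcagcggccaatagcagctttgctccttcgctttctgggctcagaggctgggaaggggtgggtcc
In windows from 250 bases before to 50 after a start, on either strand and with overlapping matches counted, ACGTG was found in 14 of the 18 hypoxia response and glycolysis genes that fell (77.8%). It was found in 13 of 19 genes of the same lists that did not fall and have a window (68.4%). Over the 9558 genes tested that have a window the share was 29.8%. Over all 165 genes that fell, 43 of the 114 with a window held it (37.7%), and over all that rose 36 of 167 (21.6%). A gene with several starts counted when any of its windows held the motif, and over all 32851 windows the share was 19.6%. With GCGTG counted too, the shares were 94.4% of the members that fell, 89.5% of those that did not and 68.8% of all genes with a window. A match is a description of these letters and shows no binding.

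Slc16a3 encodes the lactate exporter MCT4 and lies on chromosome 11 (120948480 to 120960868, plus strand, GRCm38). Its level was 67.5, 72.2 and 52.8 CPM in the E18.5 libraries and 20.2, 18.3 and 21.96 CPM in the P0.5 libraries. The groups did not overlap, and the change was the largest fall among the genes above 20 CPM, -1.67 on the log2 scale (SE 0.24, adjusted p = 0.000129). P4ha1, a subunit of the enzyme that hydroxylates proline in collagen, had 234, 236 and 233 CPM before birth and 113, 113 and 129 CPM after it. The E18.5 libraries were nearly equal, and the log2 change was -0.99 (SE 0.11, adjusted p = 2.06e-05). Bnip3, a mitochondrial protein of mitophagy and cell death, stood at 20.3, 23.96 and 19.1 CPM and then at 10.1, 9.10 and 7.67 CPM. Its log2 change was -1.24 (SE 0.15, adjusted p = 2.06e-05), again with no overlap.

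Egln3 encodes the prolyl hydroxylase PHD3, itself a target of the factors it marks. It fell from 20.7, 23.1 and 24.3 CPM to 11.5, 11.1 and 9.16 CPM, a log2 change of -1.10 (SE 0.15, adjusted p = 8.2e-05). Its relative Egln1, which encodes PHD2, was lower in all 3 P0.5 libraries by less than 1.5-fold, with a log2 difference of -0.54 (adjusted p = 2.06e-05). Ddit4, an inhibitor of mTORC1 that hypoxia and glucocorticoids both induce, fell from 27.9, 31.3 and 23.8 CPM to 10.3, 11.1 and 17.0 CPM. P0.5 replicate 3 was the highest of its group, below every E18.5 library, and the log2 change was -1.10 (SE 0.19, adjusted p = 0.000793). Vegfa, the main growth factor of blood vessels, fell from 96.6, 101 and 74.3 CPM to 65.9, 57.0 and 54.9 CPM, a log2 change of -0.61 (adjusted p = 0.000883).

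The other members that fell were Stc2, Ankrd37, Pdk1 and Fam162a, with log2 changes of -1.49, -1.40, -0.78 and -0.78. Pdk1 encodes a kinase that keeps pyruvate out of the mitochondria, and its P0.5 libraries spread from 44.96 to 75.01 CPM, all below the 95.7 to 105 CPM of E18.5. The members that did not pass include Slc2a1, the main glucose transporter, which went from 1109.9 to 1335 CPM at E18.5 to 810.4 to 975 CPM at P0.5. Its log2 difference was -0.48 (adjusted p = 0.000968), under the fold minimum. Bnip3l, P4ha2 and Mxi1 had overlapping groups and log2 differences of -0.03, -0.10 and -0.03. Vegfa was just past the fold minimum: without E18.5 replicate 1, E18.5 replicate 2 or P0.5 replicate 3 its log2 change was -0.56, -0.53 or -0.56 and no longer passed.

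The RNA of the 2 factors with this role was not among the falls. Hif1a had 473 to 487 CPM at E18.5 and 555 to 579 CPM at P0.5, with a log2 difference of 0.23 (adjusted p = 0.0552). Epas1, which encodes HIF-2 alpha, had overlapping groups, 56.8 to 90.6 CPM and 70.4 to 85.7 CPM. Hif3a, whose product can oppose the other factors and which is also a glucocorticoid target, fell from 159 to 189 CPM to 99.4 to 102 CPM, with no overlap and a log2 change of -0.79 (SE 0.12, adjusted p = 0.000338).

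Of the glycolytic enzymes in the order of the pathway, Hk2, Pfkl, Aldoa, Tpi1, Gapdh, Pgk1, Pgam1 and Ldha fell, and with Slc16a3 they make the 9. Hk2, the hexokinase that responds to insulin, went from 141, 148 and 125 CPM to 88.6, 82.5 and 97.0 CPM, a log2 change of -0.63 (adjusted p = 9.81e-06). Pfkl, the liver form of phosphofructokinase, went from 142, 159 and 130.1 CPM to 92.7, 73.3 and 74.5 CPM, a log2 change of -0.84 (adjusted p = 5.59e-05). Ldha, which turns pyruvate into lactate, went from 415, 429 and 359 CPM to 255, 195 and 164 CPM, a log2 change of -0.97 (adjusted p = 0.0133). In none of these 3 did the groups overlap. Aldoa, Tpi1 and Pgam1 changed by -0.66, -0.70 and -0.68. Pgk1 went from 17.2 to 23.3 CPM to 7.999 to 12.1 CPM (log2 change -1.04) and Gapdh from 11.1 to 20.3 CPM to 5.45 to 6.62 CPM (log2 change -1.46). Both have many processed pseudogenes with nearly the same sequence, as Aldoa, Tpi1, Pgam1 and Ldha also have, and how reads that match several places were counted is not given, so their levels are uncertain.

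Aldoc was the exception. This aldolase, known from brain, rose from 54.5, 52.0 and 63.2 CPM to 83.4, 100.2 and 126 CPM, a log2 change of 0.87 (SE 0.13, adjusted p = 0.00022). Gpi1, Pkm and the lactate and pyruvate carrier Slc16a1 were lower by less than the fold minimum, with log2 differences of -0.26, -0.41 and -0.52, and Hk1, Pfkm, Pfkp, Ldhb, Eno2 and Slc2a3 did not reach an adjusted p of 0.05. Several calls rested on single libraries. Without P0.5 replicate 3 the log2 changes of Aldoa (-0.52) and Tpi1 (-0.56) were under the fold minimum and Ldha had an adjusted p of 0.0557. Without P0.5 replicate 2 Ldha had 0.055 and Hk2 a log2 change of -0.57, as it also had without E18.5 replicate 2.

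**Figure D2:**
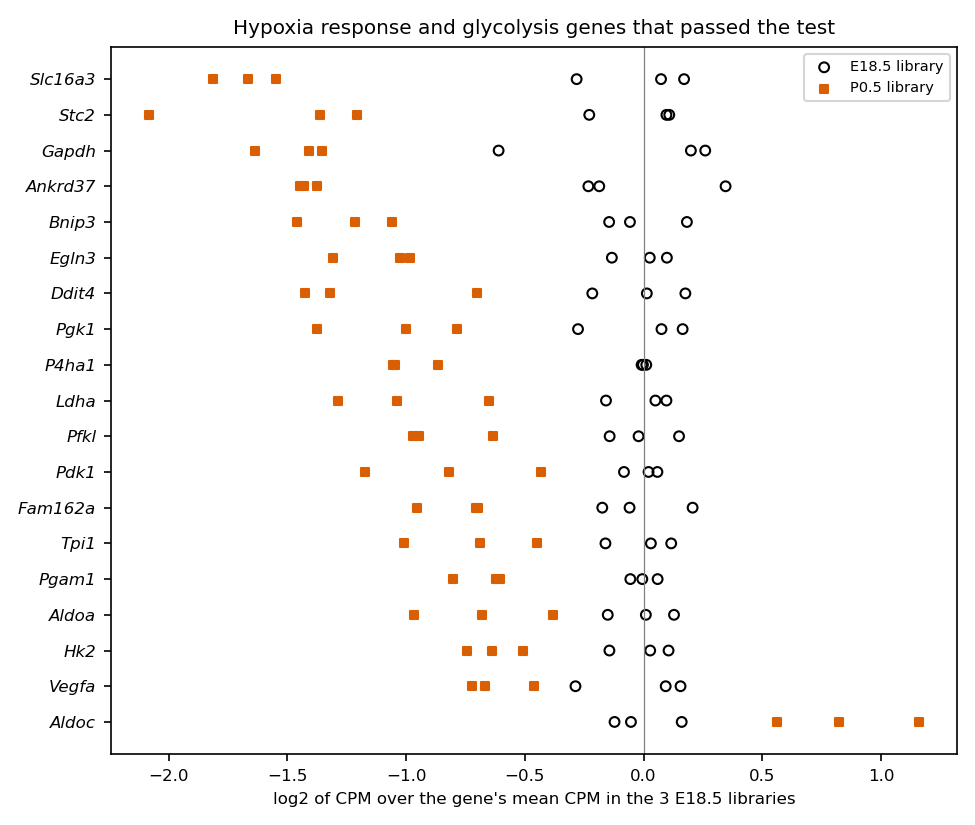
Level in each library of the 19 hypoxia response and glycolysis genes that passed the test, as log2 of the CPM over the gene's mean CPM at E18.5. Open circles are the 3 E18.5 libraries and orange squares the 3 P0.5 libraries. The squares lie left of the circles in every row except Aldoc, where they lie to the right.

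Few of these genes fell in epithelium before birth. Of the 42, none fell and 14 rose from E16.5 to E18.5, which shares the E18.5 libraries with the step across birth, and 1 fell and 7 rose from E14.5 to E16.5, which shares none. The difference between the step across birth and the step from E14.5 to E16.5 was tested, and 22 of the 42 had the more negative change across birth and none the more positive. Over all genes 2.37% were more negative and 1.26% more positive. The step across birth is the shorter one by the stage labels, and the changes were not set per day. Egln3 had 2.52 ± 0.706 CPM at E14.5 (SD, n = 3) and 4.34 to 6.52 CPM at E16.5. Its mean was 22.7 ± 1.84 CPM at E18.5 and 10.6 ± 1.25 CPM after birth. From E16.5 to E18.5, 14 of 15 ciliary margin markers rose. The part of that tissue in the Egln3 value was not tested. P4ha1 had 227 ± 3.04, 238 ± 5.60, 235 ± 1.65 and 118 ± 8.87 CPM at the 4 stages in turn.

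In fiber 4 of the 42 fell across birth (P4ha1, Ddit4, Slc2a1 and Gapdh) and Ndrg1 rose, where 0.74% of all genes fell. For Bnip3 the change was more negative in epithelium than in fiber by 1.12 on the log2 scale (SE 0.19, adjusted p = 0.00751). Bnip3 in fiber had 69.5 ± 11.0 CPM at E18.5 and 63.9 ± 10.2 CPM at P0.5. For Egln3, Slc16a3 and Pfkl the differences between the tissues were -1.07, -0.995 and -0.55 with adjusted p of 0.131, 0.193 and 0.0916. Glycolysis had a median log2 change of -0.24 in fiber and hypoxia response -0.17.

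**Figure D3:**
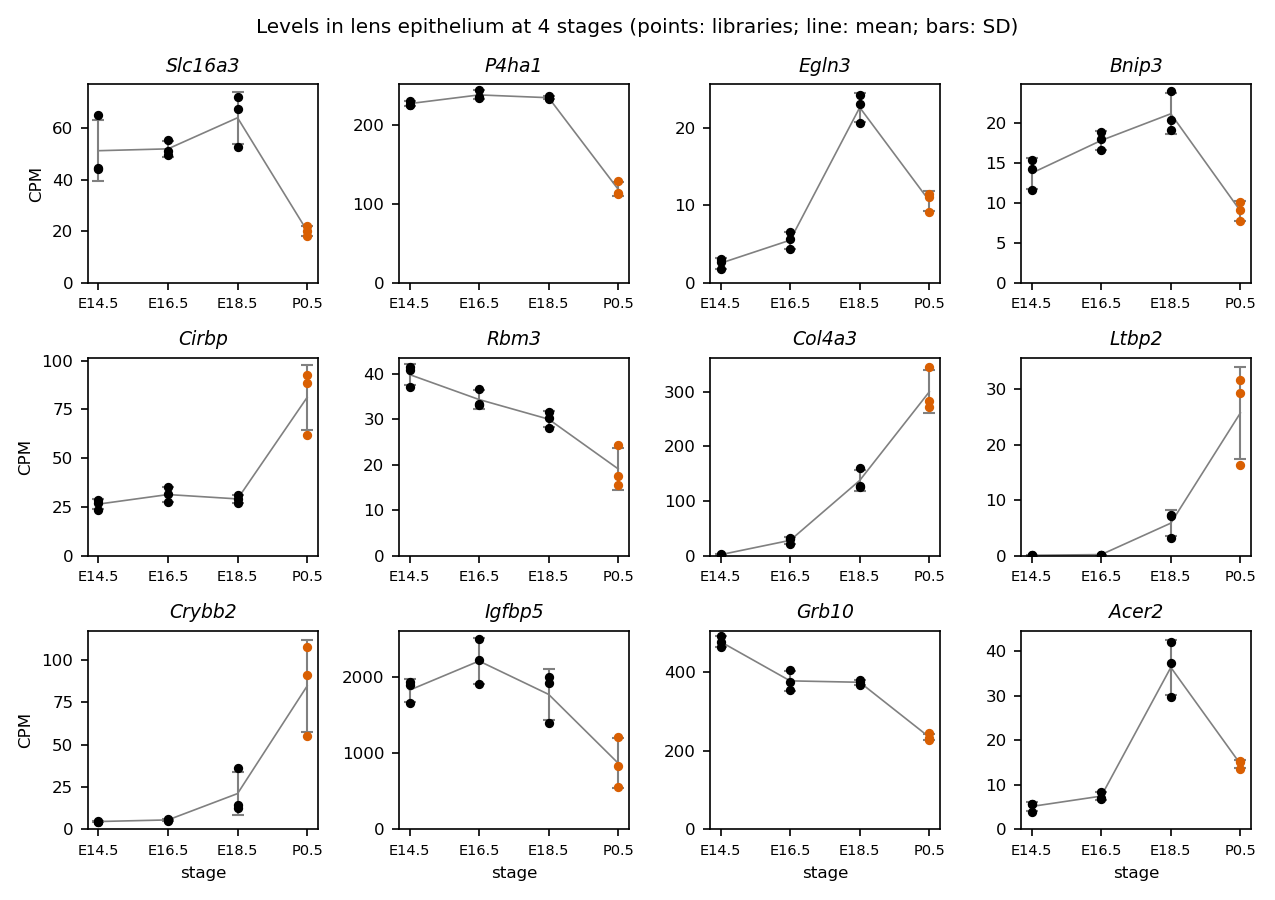
CPM of 12 genes in lens epithelium at E14.5, E16.5, E18.5 (black) and P0.5 (orange). Points are the 3 libraries of a stage, the line joins the means and the bars are SD. P4ha1 had means of 227 to 238 CPM until E18.5 and 118 CPM at P0.5, Egln3 and Acer2 were highest at E18.5, and Col4a3, Ltbp2 and Crybb2 were highest at P0.5.

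Igf2 and other genes of its pathway fell. The insulin-like growth factors drive fetal growth, their binding proteins hold them in the extracellular space, and Grb10 damps signalling from their receptors. Of 13 genes of this list 4 fell (Igf2, Igfbp3, Igfbp5 and Grb10) and none rose, with a median of -0.11. Over all genes tested 1.33% fell. Igfbp5 had 1928, 1999 and 1392 CPM at E18.5 and 1214, 830.2 and 556 CPM at P0.5. The groups did not overlap, but the P0.5 libraries differed by more than 2-fold among themselves, and the log2 change was -1.03 (SE 0.24, adjusted p = 0.0063). Igfbp3 fell from 18.2, 21.7 and 17.1 CPM to 10.7, 7.30 and 9.10 CPM, a log2 change of -1.07 (adjusted p = 0.000208). Igf2, the fetal ligand, fell from 249.2, 236 and 232 CPM to 162, 126 and 131 CPM, a log2 change of -0.78 (SE 0.18, adjusted p = 0.0065). It had 288 to 412 CPM at E14.5 and 82.5 to 134 CPM at E16.5, so its P0.5 levels overlapped those of E16.5. From E16.5 to E18.5, 5 of the 13 genes had risen, where 11% of all genes rose. The receptor genes Igf1r and Insr did not pass.

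Igf2, H19 and Grb10 are imprinted genes, expressed from a single parental copy. Of 23 genes of fetal growth tested, which also hold the RNA-binding proteins of Igf2 and early embryonic factors, 4 fell (Igf2, H19, Grb10 and Sall4) and Nnat rose. Over all genes tested 1.33% fell and 1.83% rose. H19, a noncoding RNA next to Igf2 on chromosome 7, fell from 995, 744 and 558 CPM to 511, 386 and 283 CPM, a log2 change of -0.96 (SE 0.20, adjusted p = 0.0032). The groups did not overlap, although the libraries within a group spread widely. Grb10 fell from 367, 381 and 374 CPM to 244, 231 and 228 CPM, a log2 change of -0.68 (SE 0.09, adjusted p = 6.66e-05). Sall4, a factor of early embryonic cells, fell from 0.776 to 1.26 CPM to 0.0552 to 0.258 CPM. The RNA-binding proteins Igf2bp1, Igf2bp2 and Igf2bp3 and the imprinted Mest and Igf2r were lower by less than the fold minimum, with log2 differences from -0.50 to -0.19. Nnat had overlapping groups, 27.3 to 40.8 and 40.3 to 75.5 CPM, and no longer passed without E18.5 replicate 2, P0.5 replicate 2 or P0.5 replicate 3 (adjusted p of 0.117, 0.0933 and 0.116).

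Genes of cell division were lower by small amounts. None of 26 passed at 1.5-fold in edgeR or in DESeq2, but all 26 had a negative log2 difference, 15 at an adjusted p under 0.05 and 22 at an unadjusted p under 0.05, with a median log2 difference of -0.39. Over all genes tested 28.4% had an unadjusted p under 0.05, and 6.82% were lower at an adjusted p under 0.05. The P0.5 libraries all lay below the E18.5 libraries in 21 of the 26, where 15.7% of all genes lay below. Mki67, a marker of dividing cells, had 366, 395 and 392.3 CPM at E18.5 and 297, 274 and 317 CPM at P0.5, a log2 difference of -0.38 (SE 0.13, adjusted p = 0.0489). Anln and Prc1, which act in cytokinesis, had the largest differences, -0.55 each (adjusted p = 0.00698 and 0.00581). In fiber, where Mki67 stood at 11.4 ± 0.687 and 11.5 ± 3.21 CPM, the median of this list was 0.17. From E14.5 to E16.5, 23 of the 26 had fallen, where 3.63% of all genes fell. Without P0.5 replicate 3, 3 of the 26 fell across birth, and without E18.5 replicate 1 or 3, 1 did.

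DNA replication genes gave a like median, -0.38, and 2 of 30 fell, Mcm3 and E2f2. This count depended on P0.5 replicate 3, which lay closest to the E18.5 libraries: Mcm3 had 63.0, 63.0 and 57.1 CPM at E18.5 and 33.5, 34.9 and 51.3 CPM at P0.5, and E2f2 9.31, 9.34 and 8.85 CPM against 4.25, 5.13 and 8.61 CPM. Without P0.5 replicate 3, 12 of 30 fell, and without P0.5 replicate 1 or 2 none did. Without any one E18.5 replicate only Mcm3 fell, since E2f2 had adjusted p of 0.0542 to 0.0815. The D-type cyclins, which carry growth factor signals to the cell cycle, were lower by less than 1.5-fold: Ccnd1 went from 253 to 295 CPM to 159.7 to 218 CPM and Ccnd2 from 625 to 755 CPM to 461 to 572 CPM, with log2 differences of -0.46 and -0.45. The cyclin kinase inhibitor Cdkn1a fell from 1.86 to 3.74 CPM to 0.938 to 1.99 CPM (log2 change -1.02, adjusted p = 0.0264). Its groups overlapped, and DESeq2 (adjusted p = 0.0543) and the fits without E18.5 replicate 1 or 2 or P0.5 replicate 1 or 3 (0.0613 to 0.146) did not call it.

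Several crystallins were higher after birth. Of 16 genes 2 rose (Crybb2 and Cryba2), 7 were higher with no fold minimum and none passed as lower, and the median log2 difference was 0.44. Crybb2, a beta crystallin of the lens after birth, rose from 12.7 to 35.9 CPM to 54.8, 91.2 and 108 CPM, a log2 change of 2.01 (SE 0.35, adjusted p = 0.000839). Cryba2 rose from 232, 203 and 304 CPM to 371, 551 and 629.6 CPM, a log2 change of 1.07 (SE 0.17, adjusted p = 0.000402). Neither gene's groups overlapped, and in both E18.5 replicate 3 was the highest of its group and P0.5 replicate 1 the lowest. Cryaa, which encodes an alpha crystallin, was higher by 0.56 (8787 to 9560 CPM against 10674 to 15541 CPM). Without P0.5 replicate 1 the number of crystallins that rose was 10, and without E18.5 replicate 3 it was 5. Beside them, none of 21 fiber structure genes passed in edgeR and 1 fell in DESeq2, with 9 at an unadjusted p under 0.05 (7 higher, 2 lower), where 28.4% of all genes were. Without P0.5 replicate 1, 1 of the 21 rose, and without E18.5 replicate 3, P0.5 replicate 2 or P0.5 replicate 3, 1 fell. The intermediate filament gene Bfsp1 was lower by 0.49, and the connexin gene Gja3 and the fiber factor Prox1 were higher by 0.33 and 0.26. Whether fiber RNA in the epithelium takes part in the crystallin values was not tested.

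Basement membrane and matrix genes gave several of the largest rises. Type IV collagen forms the network of the lens capsule, first with the alpha 1 and alpha 2 chains and later with alpha 3, alpha 4 and alpha 5. Of 24 genes 2 rose, Col4a3 and Col4a4, which lie head to head on chromosome 1 (82586921 to 82722059 on the plus strand and 82448423 to 82586849 on the minus strand). Col4a3 rose from 125, 128 and 159.9 CPM to 272, 283 and 345 CPM, a log2 change of 1.12 (SE 0.20, adjusted p = 0.000855). Col4a4 rose from 168, 181 and 211 CPM to 361, 363 and 451 CPM, a log2 change of 1.07 (SE 0.26, adjusted p = 0.00987). DESeq2, which gave Col4a4 nearly the same change (1.05), did not call it (adjusted p = 0.213). Col4a1 and Col4a2 were higher by 0.28 and 0.38 at an adjusted p of 0.00672 and 0.00127, and Col4a5 did not pass. Both Col4a3 and Col4a4 were already climbing: Col4a3 had 2.16 ± 0.768 CPM at E14.5, 28.4 ± 6.28 CPM in the next stage and 138 ± 19.1 CPM before birth. Its step across birth was smaller than the longer one from E14.5 to E16.5 by 2.60 on the log2 scale (adjusted p = 0.000449). Both rose in fiber too, by 1.23 and 1.504 on the log2 scale.

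Ltbp2 had the largest rise of the named genes. It encodes a microfibril protein of the fibers that hold the lens to the ciliary body. It was near 0 until E16.5, had 7.12, 3.14 and 7.37 CPM at E18.5 and 31.5, 16.3 and 29.2 CPM at P0.5, a log2 change of 2.11 (SE 0.26, adjusted p = 3.59e-05). The groups did not overlap, and replicate 2 was the lowest in both. In fiber it stayed under 1 CPM on average. Its first rise, from E16.5 to E18.5, came with that of the ciliary margin markers, 14 of 15 of which rose in that step. Over all genes tested 11% rose in it. Across birth none of these 15 passed in edgeR or DESeq2 (5 at an unadjusted p under 0.05, where 28.4% of all genes were), with a median of -0.17. Without P0.5 replicate 1, 2 of the 15 fell, without P0.5 replicate 2 or 3, 1 fell, and without E18.5 replicate 3, 1 rose. The part of such tissue in the Ltbp2 value was not tested. Ppl, a plakin that links desmosomes to intermediate filaments, rose from 25.3, 15.4 and 23.7 CPM to 58.8, 63.9 and 81.5 CPM (log2 change 1.66, SE 0.18, adjusted p = 9.81e-06). Cd44, a receptor for hyaluronan, rose from 22.1, 9.68 and 21.3 CPM to 39.0, 39.8 and 63.6 CPM (log2 change 1.41, adjusted p = 0.000981). Emb, a relative of the carrier chaperone basigin, rose by 1.06 (adjusted p = 0.0121) and Pgm5, an adhesion protein, by 0.96 (adjusted p = 8.18e-05). Emb had an adjusted p of 0.0591 without E18.5 replicate 1 and 0.0826 without P0.5 replicate 3.

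**Figure D4:**
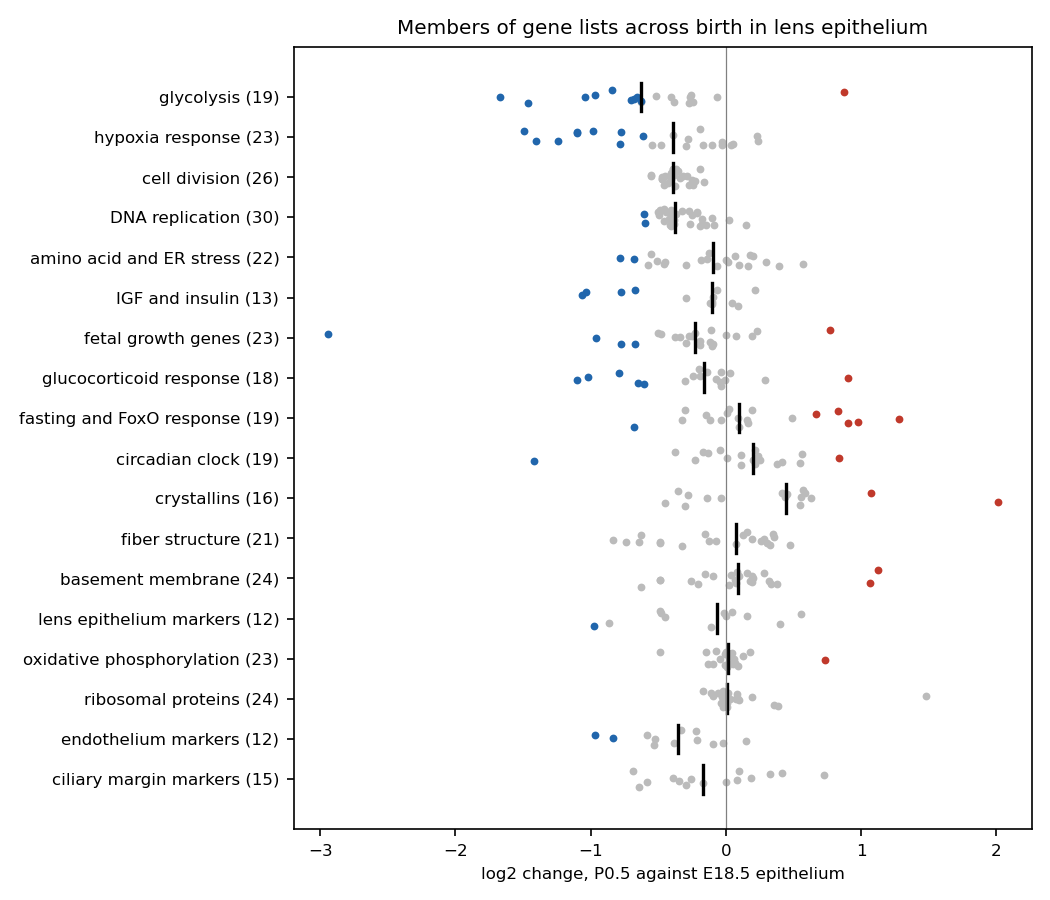
Log2 change from E18.5 to P0.5 in epithelium of each member of 18 gene lists, with the number of members in parentheses. Red points rose, blue points fell, grey points did not pass, and the black bar is the list's median. The bars of glycolysis, hypoxia response, cell division and DNA replication lie at -0.63, -0.39, -0.39 and -0.38, that of crystallins at 0.44, and that of ribosomal proteins at 0.01.

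The RNA-binding proteins that cold induces moved in opposite directions. Cirbp and Rbm3 encode relatives that are both known to increase in cooled cells. Cirbp rose from 26.9, 29.1 and 31.4 CPM to 92.7, 88.7 and 62.1 CPM, a log2 change of 1.48 (SE 0.13, adjusted p = 1.02e-06). Its earlier levels were 26.5 ± 2.61 CPM at E14.5 and 31.4 ± 3.86 at E16.5. Rbm3 fell from 28.1, 30.2 and 31.6 CPM to 15.5, 17.4 and 24.3 CPM, a log2 change of -0.64 (SE 0.14, adjusted p = 0.00367). P0.5 replicate 3 was the library nearest to E18.5 for both genes. Rbm3 was close to the fold minimum and did not reach it without P0.5 replicate 1 (-0.52) or 2 (-0.58). Fiber showed the same opposite changes, 1.22 for Cirbp and -1.16 for Rbm3 (adjusted p = 3.24e-05 and 0.000621). Of the 18 heat shock proteins and chaperones tested, Hsph1 fell from 53.7, 59.6 and 63.6 CPM to 29.4, 35.1 and 38.2 CPM, a log2 change of -0.78, and the other 17 did not pass.

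Genes of fasting and of FoxO factors gave more rises than falls. FoxO factors are active when insulin signalling is low, and fatty acids switch on others of this list through the PPAR receptors. Of 19 genes tested, those that rose include Txnip, Cpt1a, Angptl4 and Acot2, and Sesn2 fell, and the median of the list was 0.10. Over all genes tested 1.83% rose and 1.33% fell. Sesn2, a stress-induced inhibitor of mTORC1, had an adjusted p of 0.0507 to 0.0627 without E18.5 replicate 1 or 3 or P0.5 replicate 1 or 2. Txnip, which limits glucose uptake, rose from 19.8, 17.2 and 29.1 CPM to 56.6, 42.1 and 31.8 CPM, a log2 change of 0.98 (SE 0.20, adjusted p = 0.00313). Cpt1a, which admits fatty acids into mitochondria, rose from 50.2, 48.4 and 64.3 CPM to 85.3, 85.5 and 87.3 CPM, a log2 change of 0.66 (SE 0.12, adjusted p = 0.00102). Angptl4, an inhibitor of lipoprotein lipase, rose by 0.90 (adjusted p = 0.00244). None of Txnip, Cpt1a and Angptl4 had overlapping groups. Acot2 had an adjusted p of 0.0364, and of 0.0529 to 0.144 in 5 of the 6 fits that each left out a library, all but the one without E18.5 replicate 3. Of 23 genes of oxidative phosphorylation only Cycs passed, at 1.95 to 2.87 CPM against 2.90 to 5.13 CPM. It has pseudogenes and was lost with DESeq2 (adjusted p = 0.0671) and with the replicate number as a block (0.0619). It was also lost without E18.5 replicate 1 or 2 or P0.5 replicate 2 or 3 (0.0539 to 0.259).

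Genes of the response to glucocorticoids, the hormones that surge before birth, had a negative log2 difference in 15 of 18. The median over all genes tested was -0.003. The 18 are targets and the receptor genes Nr3c1 and Nr3c2. Of these 18, 5 fell (Zbtb16, Sgk1, Cdkn1a, Ddit4 and Hif3a) and Angptl4 rose, where 1.33% of all genes fell and 1.83% rose. The median of the list was -0.16, and Ddit4 and Hif3a also answer to hypoxia. The number that fell was 3 in DESeq2 and 3 when any one E18.5 library was left out, and 2 without P0.5 replicate 3. Zbtb16, a transcription factor, fell from 16.4 ± 1.75 CPM to 10.8 ± 0.773 CPM (SD, n = 3), with no overlap and a log2 change of -0.60 (adjusted p = 0.00312). Fkbp5, a chaperone that is a common readout of these hormones, was lower by 0.31 (34.3 to 37.2 CPM against 26.2 to 30.2 CPM, adjusted p = 0.024). Per1 and Tsc22d3, also targets, had log2 differences of -0.04 and -0.20. Sgk1 was lost in DESeq2 (adjusted p = 0.346) and without any library except P0.5 replicate 1 (0.0601 to 0.148). In epithelium Sgk1 had 1.09 to 5.76 CPM at E14.5 and E16.5 and 58.8 to 65.3 CPM at E18.5. From E16.5 to E18.5, 14 of 15 ciliary margin markers rose, where 11% of all genes did. The part of that tissue in the Sgk1 value was not tested. Zbtb16 was under the fold minimum without E18.5 replicate 3 (-0.53) or P0.5 replicate 3 (-0.56).

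Of 19 genes of the circadian clock Nr1d1 rose and Ciart fell, and the number that rose was 2 without E18.5 replicate 1 or 3 and 3 without P0.5 replicate 3. Nr1d1, a repressor within the clock, rose from 3.46, 2.80 and 2.25 CPM to 5.22, 4.997 and 5.08 CPM, a log2 change of 0.83 (SE 0.20, adjusted p = 0.00718). Per3, Nr1d2, Tef and Hlf, which share its phase in many tissues, were higher by 0.41, 0.56, 0.25 and 0.54 with adjusted p under 0.05 and no overlap, below the fold minimum. Arntl and Dbp had log2 differences of -0.13 and 0.21 and did not pass. Ciart stood at 1.06 to 1.32 CPM and then 0.320 to 0.644 CPM, and had an adjusted p of 0.0231, or of 0.076, 0.0918 and 0.0785 without E18.5 replicate 3, P0.5 replicate 2 and P0.5 replicate 3. The time of collection is not given, and hour and age cannot be told apart.

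Immediate early genes, which are induced within minutes of handling or of growth factors, were lower where they passed. Of 20 tested Egr1 and Nr4a1 fell and none rose, with a median of -0.22, and 4 fell without P0.5 replicate 3. Egr1 fell from 12.4, 12.3 and 16.9 CPM to 4.25, 5.64 and 3.70 CPM, a log2 change of -1.62 (SE 0.38, adjusted p = 0.00718). In fiber Egr1 fell by 4.35. Among genes of amino acid and endoplasmic reticulum stress, Xbp1 and Sesn2 fell of 22. The number that fell was 1 without E18.5 replicate 1 or P0.5 replicate 2 and 4 without P0.5 replicate 3. Xbp1, a factor that expands the secretory apparatus, fell from 32.3, 33.98 and 32.2 CPM to 14.1, 19.99 and 22.8 CPM, a log2 change of -0.78 (SE 0.11, adjusted p = 0.000129). The chaperones of that compartment Hspa5, Hsp90b1, Calr and Pdia4 were lower by 0.55, 0.46, 0.45 and 0.30, all with adjusted p under 0.05, and Atf4 was higher by 0.39.

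Pathways that govern lens growth had 1 or 2 members that passed, where 3.16% of all genes tested passed. Of 17 genes of FGF signalling and its feedback, Fgf1, a growth factor of fiber differentiation, rose (5.86 to 7.68 CPM, then 10.7 to 12.4 CPM, log2 change 0.85) and Spry4, an inhibitor of the pathway, fell (7.68 to 10.5 CPM, then 5.64 to 6.45 CPM, log2 change -0.62). Both were lost without E18.5 replicate 1, E18.5 replicate 2 or P0.5 replicate 1, with adjusted p of 0.0546 to 0.072 for Fgf1 and 0.0845 to 0.129 for Spry4, and Spry4 also without P0.5 replicate 2 (0.104). Fgf15, of another branch of the family and known from retina, fell from 38.9, 46.6 and 78.8 CPM to 22.5, 37.2 and 16.6 CPM, a log2 change of -1.11 (adjusted p = 0.0234). It was not called by DESeq2 (adjusted p = 0.116) or without E18.5 replicate 3, P0.5 replicate 1 or P0.5 replicate 3 (0.161, 0.0767 and 0.0981). Fgf15 had 3.90 to 18.4 CPM in epithelium at E14.5 and E16.5. The part of tissue next to the lens in the Fgf15 value was not tested. Of 23 genes of BMP and TGF-beta signalling, Bmp2 fell from 11.1, 11.4 and 17.5 CPM to 6.19, 6.98 and 6.12 CPM (log2 change -1.05, adjusted p = 0.00542), and Id2, a target of this pathway, rose from 21.6, 18.4 and 22.7 CPM to 31.1, 34.9 and 31.2 CPM (log2 change 0.63, adjusted p = 0.000691). Id2 was just under 1.5-fold without E18.5 replicate 2 (0.55) or P0.5 replicate 2 (0.57). Bmp2 had 0.466 to 1.20 CPM in epithelium at E14.5 and E16.5. Its level came up by E18.5, the step in which 14 of 15 ciliary margin markers and 11% of all genes rose. The part of that tissue in the Bmp2 value was not tested. Of 28 Wnt genes Sfrp2, a secreted inhibitor, fell, and of 25 lens transcription factors Sox11 fell. Both counts are close to the share over all genes. Sfrp2 was lost without E18.5 replicate 2 or 3 or P0.5 replicate 3 (adjusted p of 0.0511, 0.126 and 0.14), and Sox11 without E18.5 replicate 3 or P0.5 replicate 3 (log2 changes of -0.42 and -0.51).

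Several lists had no member that passed in edgeR. Their counts at an unadjusted p under 0.05 stand beside 28.4% over all genes. For Notch (17 genes) 6 had such a p and 1 fell in DESeq2. Without P0.5 replicate 1, 2 Notch genes rose, without E18.5 replicate 1, 1 rose, and without replicate 3 of either stage, 1 fell. For antioxidant genes (24), cholesterol synthesis (21), ribosomal proteins (24), integrins and adhesion (19) and solute transport (20) DESeq2 called none either, and 8, 4, 2, 8 and 7 had an unadjusted p under 0.05. In the fits that each left out a library, 1 cholesterol gene fell without P0.5 replicate 3 and 1 integrin or adhesion gene without P0.5 replicate 1. Ribosomal proteins had a median log2 difference of 0.01.

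Other named genes that changed have no place in these lists. Acer2, a ceramidase of the Golgi, fell from 37.3, 42.1 and 29.6 CPM to 15.1, 13.5 and 15.3 CPM, a log2 change of -1.31 (SE 0.16, adjusted p = 2.1e-05). It had risen only between E16.5 and E18.5, from 7.41 ± 0.893 to 36.3 ± 6.26 CPM. Klf11, a zinc finger factor that TGF-beta induces, rose from 16.4, 13.9 and 19.01 CPM to 45.6, 36.1 and 30.8 CPM, a log2 change of 1.19 (SE 0.14, adjusted p = 2.1e-05). Plk2, a kinase that stress and p53 induce, fell from 25.2, 26.8 and 18.9 CPM to 11.8, 11.1 and 10.7 CPM (log2 change -1.07, adjusted p = 0.000363). Slc38a8, a glutamine transporter of the retina, fell by 1.17 (adjusted p = 0.0157) and the pseudogene Tmem181c-ps by 1.41 (adjusted p = 0.0457). DESeq2 called neither (adjusted p of 0.265 and 0.0992). Slc38a8 also had adjusted p of 0.0831, 0.0512 and 0.0504 without E18.5 replicate 3, P0.5 replicate 2 and P0.5 replicate 3. Tmem181c-ps had 0.0812 to 0.171 without E18.5 replicate 1 or 2 or P0.5 replicate 1 or 2, and 0.0524 with the replicate block. Slc38a8 had 0.233 to 4.20 CPM in epithelium at E14.5 and E16.5 and 18.8 to 28.2 CPM at E18.5. The part of tissue next to the lens in its value was not tested.

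Markers of cells around the lens were followed beside these results. Of 12 endothelium markers Kdr and Flt1, the receptors of the factor that Vegfa encodes, fell and none rose, 11 were lower and the median was -0.36. Kdr fell from 127, 121 and 95.5 CPM to 63.0, 55.7 and 56.9 CPM, a log2 change of -0.97 (SE 0.23, adjusted p = 0.00799). Cdh5 and Cldn5, the junction proteins that define endothelium, had overlapping groups and log2 differences of -0.21 and -0.02. DESeq2 called neither Kdr nor Flt1 (adjusted p of 0.276 and 0.315), Flt1 was lost without E18.5 replicate 1, E18.5 replicate 2 or P0.5 replicate 2 (0.0599, 0.0506 and 0.0721), and 5 or 4 of the 12 fell without E18.5 replicate 3 or P0.5 replicate 1. Of 8 mural cell markers Kcnj8 and Abcc9 fell and Acta2 rose. Kcnj8 was lost without E18.5 replicate 1 or 2 or P0.5 replicate 2 or 3 (0.0921 to 0.154), and Acta2 without P0.5 replicate 2 (0.0639). Of 6 red cell genes tested Alas2, the first enzyme of heme synthesis in red cells, fell from 11.3, 8.92 and 9.39 CPM to 3.16, 3.27 and 2.37 CPM, and 2 of the 6 fell without P0.5 replicate 1. DESeq2 called 3 of the 6 lower, and the median of the list was -1.24. Its sum, which includes Alas2, was 11.2 to 14.2 CPM at E18.5 and 2.81 to 4.70 CPM at P0.5. The globin genes Hba-a1, Hba-a2, Hbb-bs, Hbb-bt and Hbb-bh1 were listed at 0 in all 6 libraries, and Hbb-y and Hba-x were under 1 CPM in each. Of 9 macrophage markers Cd68 rose, from 1.596 to 1.95 CPM to 2.76 to 4.90 CPM, and Cd68 was lost without E18.5 replicate 1 or P0.5 replicate 1 (adjusted p of 0.0554 and 0.0727). Atoh7 of 12 retina markers and Mitf of 8 pigment cell markers fell, Mitf by 0.67, or by 0.48 without P0.5 replicate 3, where Tyr and Tyrp1 were also lowest. Atoh7 was lost without E18.5 replicate 2 or P0.5 replicate 3 (0.0678 and 0.0575), and 3 retina markers fell without P0.5 replicate 2. No mesenchyme marker passed (9 tested, none at an unadjusted p under 0.05, none in DESeq2). The part of these cells in the other results was not tested.

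The change across birth was then compared with that in fiber, which shares no library with it. In fiber 121 genes rose and 92 fell, 0.974% and 0.74% of the genes tested. Of these, 34 rose in both tissues, which is 14.9% of the rises in epithelium and 28.1% of those in fiber, and 17 fell in both, 10.3% and 18.48% of the falls. No gene was called in opposite directions. Of the 228 genes that rose in epithelium 201 had a change of the same sign in fiber, as had 122 of the 165 that fell. Cirbp, Cd44, Ppl, Col4a3 and Col4a4 rose in both, and P4ha1, Ddit4, Hif3a, Rbm3, Egr1 and Gapdh fell in both.

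A test of the difference between the tissues called 38 genes (0.306%), 13 with the more positive change in epithelium and 25 with the more negative. Acer2 had the largest difference, -1.61 (SE 0.21, adjusted p = 0.00108): in fiber its level was 67.8 ± 9.05 CPM at E18.5 and 83.0 ± 13.6 CPM at P0.5. For some genes the change lay in fiber. Zfp365 had 30.0 to 32.1 CPM and 29.2 to 31.3 CPM in epithelium while it fell in fiber from 269 ± 34.6 to 129 ± 21.5 CPM, a difference of 1.04 (SE 0.19, adjusted p = 0.0164). Pcdh17, a protocadherin, had overlapping groups in epithelium and rose in fiber from 49.5 ± 4.86 to 94.9 ± 19.3 CPM. Its difference was lost in 4 of the 19 other fits (adjusted p of 0.0511 to 0.0799), those without E18.5 epithelium replicate 2, P0.5 epithelium replicate 3, E18.5 fiber replicate 3 or P0.5 fiber replicate 1. Sec14l5 rose in epithelium alone by call, from 1.02 to 1.94 CPM to 3.72 to 4.32 CPM (difference 1.43, adjusted p = 0.0183), and Btbd17 from 6.03 to 8.30 CPM to 13.7 to 17.0 CPM (difference 0.98, adjusted p = 0.0186). The differences of both were lost with library size scaling (adjusted p of 0.0517 and 0.115) and without E18.5 epithelium replicate 2 (0.065 and 0.0615). In E18.5 fiber Sec14l5 had 31.1 to 38.2 CPM and Btbd17 80.9 to 85.7 CPM, above their levels in epithelium. The part of fiber RNA in their epithelium values was not tested. The counts of 13 and 25 depended on the processing: they were 1 and 4 with library size scaling, 35 and 44 with DESeq2, and 34 and 26 with a replicate block by stage. They also depended on single libraries: without E18.5 epithelium replicate 2 they were 5 and 12, and without P0.5 fiber replicate 3 they were 42 and 43. Without P0.5 epithelium replicate 1 the first count was 24. The second was 11 without P0.5 epithelium replicate 2, 9 without E18.5 fiber replicate 3, and 16 without P0.5 fiber replicate 1 or without E18.5 fiber replicate 2, the library in which Rn45s took 28.9% of the counts.

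**Figure D5:**
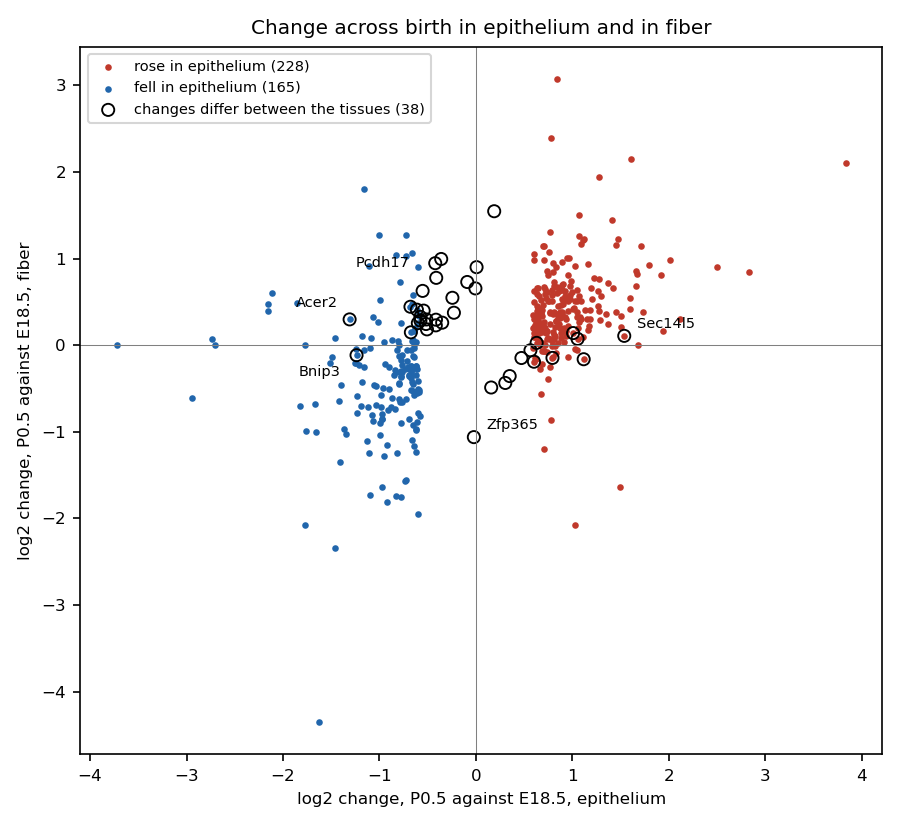
Log2 change from E18.5 to P0.5 in fiber (vertical axis) against that in epithelium (horizontal axis) for the 228 genes that rose (red) and the 165 that fell (blue) in epithelium. Black circles mark the 38 genes whose changes differed between the tissues by test. Most red points lie above 0 and most blue points below 0 on the vertical axis, 201 of 228 and 122 of 165.

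Fewer genes changed across birth than in either earlier step in the same tissue, but each earlier step covers more days. The counts were not set per day, so they do not compare rates of change. From E14.5 to E16.5, 511 genes rose (4.11%) and 451 fell (3.63%), and from E16.5 to E18.5, which shares the E18.5 libraries, 1362 rose (11%) and 211 fell (1.7%). The test of the step across birth against the step from E14.5 to E16.5 called 450 genes (3.62%), of which 294 were more negative across birth and 156 more positive. Hif3a was among the first: it had risen from 21.6 ± 5.36 to 78.1 ± 9.64 CPM in the early step, and the difference between the steps was -2.64 (adjusted p = 1.35e-08). Cirbp was among the second, with a difference of 1.23 (adjusted p = 0.000322), and so was Emb, which had been going down from 42.2 ± 9.41 CPM at E14.5 to 16.8 ± 3.98 at E18.5 and stood at 34.9 ± 12.4 CPM at P0.5 (difference 1.49, adjusted p = 0.0164). Without E14.5 epithelium replicate 3 the test called 280 genes.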

How the data were processed

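Total RNA of lens epithelium and fiber was sequenced, and the authors deposited 1 table of read counts per gene symbol for 24 libraries. The submitters' processing notes name Trim Galore 0.4.1, TopHat2 2.0.13, HTSeq 0.6.1, Cufflinks 2.2.1 and Cuffdiff and the build mm10, with no role given. The sources used here do not say whether the counting used strand, or how it treated reads that match several places. Overlapping and antisense genes therefore cannot be told apart.

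Counts were analysed as deposited with edgeR 4.0.16 in R 4.3.3. Genes passing filterByExpr (minimum count 10, minimum total 15) were kept, libraries were scaled with TMM, and 1 quasi-likelihood model with a mean for each of 8 groups was fitted to all 24 libraries, which gave 16 residual degrees of freedom. P-values were adjusted over all genes tested with the Benjamini-Hochberg method. The test recovered all 200 genes changed in simulated counts. The abundance of those genes, the size of their changes and the number of false calls are not reported here. The recovery therefore does not show how well the test finds genes of low abundance or changes near the fold minimum. Standard errors are the log2 change over the square root of the F statistic. Promoter windows are from RefSeq on GRCm38.p6, the assembly of mm10, and gene positions from GENCODE on GRCm38. Alternatives included DESeq2 1.42.0, other scalings and sample sets, a replicate block and leaving out each replicate.

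The named genes are the 12 largest rises and 12 largest falls among called genes with a higher group mean of at least 20 CPM and groups that do not overlap, without predicted genes and small RNAs, the 5 largest differences from fiber each way, and members of the gene lists. Some list members are not reported here. The members and lists were chosen with earlier results of these data known.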

Additional observations from a re-analysis of the deposited data

Results flagged for a closer look

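For 17 of the genes named here, the change across birth differed between epithelium and fiber in edgeR's test of that difference (adjusted p under 0.05 and at least 1.5-fold). Values are the log2 change in epithelium minus that in fiber. They were more negative in epithelium for Acer2 (-1.61), Pcdh17 (-1.37), Bnip3 (-1.12), Sesn2 (-1.12), Arhgap10 (-0.94), Ier5 (-0.90), Mthfd2 (-0.86), Mitf (-0.82), Mcm7 (-0.82), Pfkm (-0.79) and Slc16a1 (-0.76). They were more positive for Sec14l5 (1.43), Zfp365 (1.04), Btbd17 (0.98), Bmper (0.94), Plcb1 (0.79) and Id2 (0.60). Acer2, Bnip3 and Zfp365 passed under all 19 alternatives run. Arhgap10, Bmper and Mcm7 were lost under 1 of them, Btbd17 and Sec14l5 under 2, Pfkm under 3, Pcdh17 under 4, Ier5 and Plcb1 under 5 and Sesn2 under 10. Id2, Mthfd2 and Slc16a1 were lost under 12 and Mitf under 13.

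For Mcm7, a subunit of the replication helicase, the log2 change was -0.09 in epithelium and 0.73 in fiber, and for Ier5, an immediate early gene, 0.01 and 0.90. Bmper, a secreted regulator of BMP signalling, rose in epithelium from 18.9, 12.7 and 19.9 CPM to 27.2, 28.6 and 33.7 CPM, and the groups did not overlap. In E18.5 fiber Bmper had 234 to 279 CPM and Id2 390 to 412 CPM, above their levels in epithelium. The part of fiber RNA in their epithelium values was not tested. The cause of these differences was not tested.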

How the results depend on the processing

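The counts of genes that rose and fell were 72 and 53 at a minimum of 2-fold and 799 and 848 with no minimum, and ranged from 166 to 221 and from 123 to 202 when 1 library was left out. DESeq2 gave 189 and 156, library size scaling 174 and 127, and the 6 libraries alone 157 and 125. The genes whose change was more positive in epithelium than in fiber numbered 13, or 1 with library size scaling, 35 with DESeq2, 3 at 2-fold, 36 with no minimum and 5 to 42 without single libraries. Those with a more negative change numbered 25, or 4, 44, 9, 44 and 9 to 43 in the same order. The 450 genes that differed between the birth step and the first step became 279 with library size scaling, 199 at 2-fold, 850 with no minimum and 280 to 549 without single libraries. The 70 list members called became 27 at 2-fold, 176 with no minimum and 58 to 85 without single libraries. Of 81 named genes followed, 44 passed under each of the 14 alternatives that kept the 1.5-fold minimum, and 0 changed sign. The median change over all genes stayed between -0.016 and 0.003. Replicates of a group differed by 4.50 to 12.2 times the counting noise (chi-square per degree of freedom), so the spread between libraries was larger than depth alone gives.

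Same-numbered E18.5 and P0.5 epithelium libraries were not treated as pairs: their deviations correlated at -0.004, -0.007 and -0.25, and none matched its own number best. Between epithelium and fiber before birth the correlations were 0.182, -0.068 and 0.082. After birth they were 0.09, 0.093 and 0.238, and 3 of these 6 matched their own number best. With the replicate block 224 genes rose and 171 fell, the differences from fiber numbered 16 and 22 (34 and 26 with a replicate block by stage), those between steps 447 and the list members 75. Of the 81 genes Cycs and Tmem181c-ps were lost with the block.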

Other observations

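The genes in this paragraph are outside the lists and were chosen after their values were seen. Apln, a ligand of tip cells, had 7.58, 8.07 and 6.91 CPM at E18.5 and 2.84, 3.01 and 3.81 CPM at P0.5, a log2 change of -1.21 (edgeR, adjusted p = 0.000363). Esm1, Acvrl1, S1pr1 and Cxcl12 fell by 0.90, 0.80, 0.72 and 1.52 on the log2 scale. Ak4, an adenylate kinase of mitochondria, went from 13.9, 12.1 and 12.6 CPM to 4.83, 4.42 and 5.85 CPM, with no overlap. Tfrc, the transferrin receptor, went from 69.6, 68.0 and 77.1 CPM to 42.3, 41.8 and 42.0 CPM, a log2 change of -0.77, and Gys1, a glycogen synthase, fell by 0.62.

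Of 23 autophagy and lysosome genes Bnip3 fell and 7 were higher with no fold minimum, among them the lysosomal proteases Ctsl (0.44) and Ctsd (0.28). Of 38 C/D box small nucleolar RNAs 2 rose and 7 fell, with a median log2 difference of -0.26, and of 25 H/ACA box RNAs 2 rose and 0 fell, with a median of 0.26.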
